A study of Saccharomyces cerevisiae with 12 samples.

Results

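The comparison described here set the yeast strain *rad4Δrad23Δ*, which lacks both *RAD4* and *RAD23*, against its wildtype parent in cells that had not been irradiated. It used 6 of the 12 arrays of the series, 3 labelled as the double mutant and 3 as wildtype, and all 9275 probe sets that are not array controls. The other 6 arrays, 3 of *rad23Δ* and 3 of *rad4Δ*, entered the same fit and are given where they show how a double mutant value compared with either single deletion. All 4 strains were *Saccharomyces cerevisiae* of the BY4742 background, a haploid laboratory strain of mating type α. The single mutants and the wildtype came from the Euroscarf collection, and the double mutant was built from the BY4742 *rad23Δ* strain by replacing *RAD4* with a fragment carrying the *HIS3* marker. All cultures were untreated and were harvested from rich medium (YPD) in log phase at an optical density of 0.5 to 0.6. Total RNA was hybridised to Affymetrix S98 oligonucleotide arrays, and values are log2 signals after robust multichip averaging (RMA), so that 1 unit is a 2-fold difference in signal.

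Rad4 and Rad23 form the complex that recognises damaged DNA at the start of nucleotide excision repair, and their human counterparts are XPC and HR23B. Rad23 also carries ubiquitylated proteins to the proteasome. The comparison asks which transcripts differ when both partners are missing although no damage has been inflicted.

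The deleted genes were read first, since they check the labels. *RAD23* was at 3.66, 3.74 and 3.82 on the double mutant arrays, at 4.88, 4.33 and 4.27 on the *rad23Δ* arrays, at 9.38, 9.58 and 9.82 on the *rad4Δ* arrays and at 9.58, 9.32 and 9.58 on the wildtype arrays. *RAD4* was at 2.99, 2.7 and 2.84 on the double mutant arrays, at 5.44, 5.12 and 5.14 on the *rad23Δ* arrays, at 3.49, 5.47 and 3.01 on the *rad4Δ* arrays and at 5.11, 5.12 and 3.42 on the wildtype arrays. *RAD23* followed its labels on all 12 arrays. *RAD4* was low on the array labelled wildtype replicate 3 and high on the array labelled *rad4Δ* replicate 2, against both labels, while all 3 double mutant arrays were low for both genes. 1 probe set without a gene name, the uncalled point with the largest positive difference, was at 12.2, 12.16 and 12.11 on the double mutant arrays, at 12.15, 4.28 and 12.36 on the *rad4Δ* arrays and at 4.75, 4.63 and 12.18 on the wildtype arrays, so that the same 2 arrays stood out from their strains. Differences from wildtype, their tests and the list medians below were therefore also computed without the array labelled wildtype replicate 3. The contrasts with *rad23Δ* and *rad4Δ* and the counts of genes whose arrays did not overlap were taken with all arrays only. The deposited labels were kept throughout.

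*RAD4* itself differed by -1.71 between the double mutant and wildtype (95% interval -2.91 to -0.50, adjusted p = 0.27 in limma) and was not called with all arrays. Without the array labelled wildtype replicate 3 the difference was -2.27 and still not called (adjusted p = 0.14). It passed at the same size only when the array labelled *rad4Δ* replicate 2 was left out as well (adjusted p = 1.5e-04), or the 3 double mutant arrays were fitted with wildtype replicates 1 and 2 alone (adjusted p = 4.4e-04). The probe sets for *HIS3*, the marker placed at the *RAD4* locus, differed by 0.63 and 0.73. Neither passed in the fit over all strains (adjusted p = 0.055 and 0.13) or without the array labelled wildtype replicate 3 (adjusted p = 0.16 and 0.34). Both passed in a limma fit of the 6 arrays of both strains alone (adjusted p = 0.021 and 0.044). In the fit over all strains the first was higher than in *rad23Δ* by 0.93 (adjusted p = 0.0081) and than in *rad4Δ* by 0.71 (adjusted p = 0.030). The second passed against neither single mutant (adjusted p = 0.081 and 0.36). The 8 measured genes among the 5 on either side of *RAD4* differed by -0.22 to 0.21 and the 10 around *RAD23* by -0.40 to 0.44. No gene beside either deletion was called.

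A further pair of arrays stood apart on a limited set of probe sets. On double mutant replicate 2, 64 probe sets lay more than 1 log2 unit below all 11 other arrays and 0 lay as far above them. On wildtype replicate 2, 28 lay below and 2 above, and this array also had the lowest signal for all 10 ribosomal RNA control probe sets, with a mean of 4.39 against 6.46 to 7.53 on the others. The remaining 10 arrays had at most 3 such probe sets below and at most 6 above. None of these probe sets was among those called between the double mutant and wildtype. An array so far from its replicates widens the spread within its strain, which makes a call unlikely. The absence of these probe sets thus does not show that these arrays left the calls unaffected. Markers of mating type α averaged 10.67 to 10.74 on the double mutant arrays and 10.75 to 11.06 on the wildtype arrays, and those of mating type **a** averaged 4.13 to 4.14 on the double mutant arrays and 3.91 to 4.06 on the wildtype arrays, as the parental mating type would give.

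**Figure D1:**
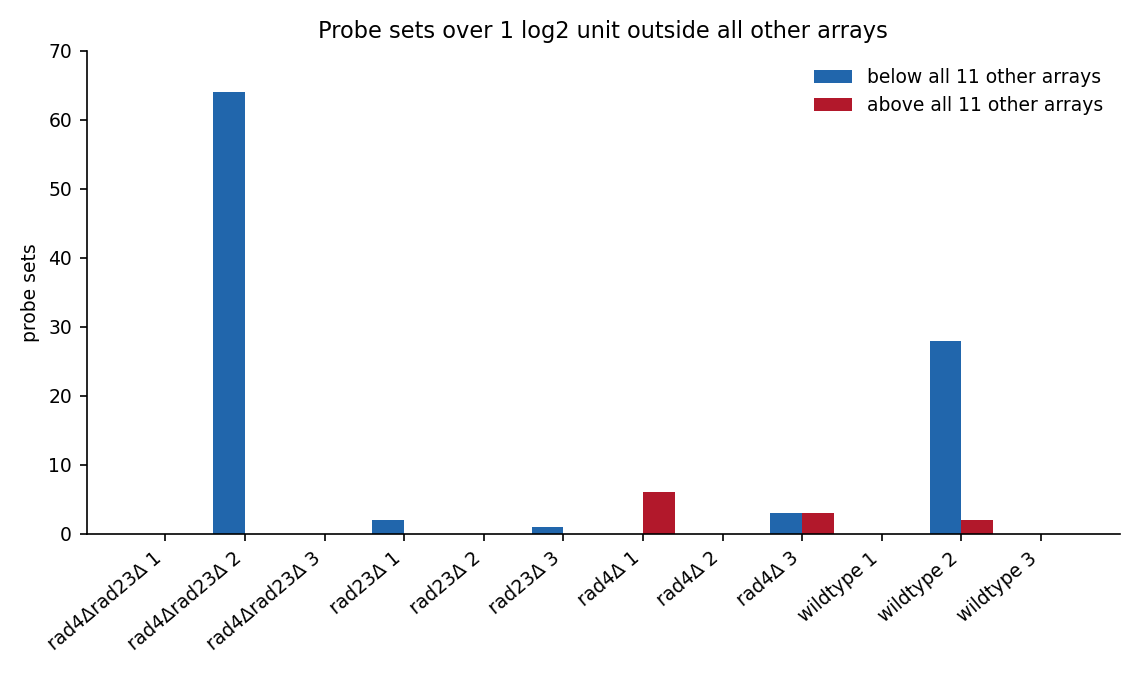
Number of probe sets (vertical axis, bars) that lay more than 1 log2 unit below or above all 11 other arrays, for each of the 12 arrays. Double mutant replicate 2 has 64 below and wildtype replicate 2 has 28 below, while every other array has at most 6 in either direction.

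Between the double mutant and wildtype, 60 of the 9275 probe sets (0.647%) passed an adjusted p of 0.05 in the limma fit over all 12 arrays. Of these, 36 (0.388%) were higher and 24 (0.259%) were lower in the double mutant. The median of the 36 differences was 0.75, that of the 24 was -0.73 and that of all probe sets was -0.02. At an unadjusted p under 0.05 there were 1028 probe sets (11.1%). In all 60 the 3 double mutant arrays lay beyond the 3 wildtype arrays, which was also the case, in either direction, for 1072 (11.6%, above) and 1237 (13.3%, below) of all probe sets. Of the 60, 47 carried a single gene name, standing for 27 genes that were higher and 17 that were lower, 5 carried several names and 8 carried none. Replicates were close in the double mutant, with a median within-strain SD over probe sets of 0.089, against 0.151 in *rad23Δ*, 0.186 in *rad4Δ* and 0.147 in wildtype. There were 3 arrays per strain, which limits the precision, and with so few arrays the smallest p that exact permutation of their labels could give is 0.1, so that all tests here use the spread pooled across probe sets and strains.

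**Figure D2:**
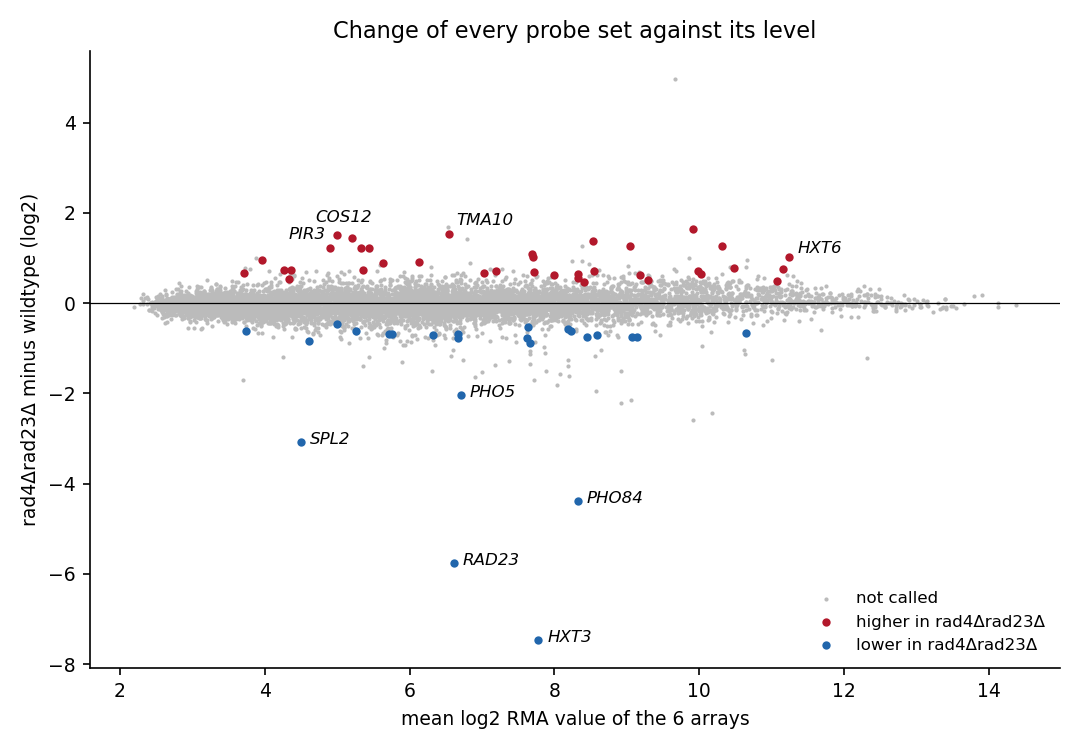
Difference between the double mutant and wildtype (vertical axis, log2 units) against the mean log2 signal of both strains (horizontal axis) for all 9275 probe sets. Each point is a probe set, the 60 called ones are coloured by direction, and 18 of them differ by at least 1 log2 unit, 13 upwards by at most 1.63 and the 5 of *HXT3*, *RAD23*, *PHO84*, *SPL2* and *PHO5* downwards by more than 2.

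The hexose transporters held both the largest decrease and several of the transcripts that rose. *HXT3*, a low-affinity glucose transporter, was at 4.21, 4.10 and 3.84 on the double mutant arrays, at 6.40, 6.13 and 6.16 in *rad23Δ*, at 11.47, 11.36 and 11.72 in *rad4Δ* and at 11.48, 11.66 and 11.39 in wildtype. The double mutant was the lowest of the 4 strains, *rad23Δ* was next, and *rad4Δ* overlapped wildtype. The difference from wildtype was -7.46 (SE 0.13, adjusted p = 6.7e-12), and the difference from *rad23Δ* was -2.18 (adjusted p = 7.1e-06). The double mutant signals lay in the range that the *RAD23* probe set gave in strains without that gene, so that they were not shown to be above background and the size of both differences is a lower bound. *HXT6* and *HXT7*, nearly identical high-affinity transporters that lie next to *HXT3* and whose probe sets may share signal, both rose. *HXT6* was at 11.70, 11.74 and 11.79 in the double mutant, 11.73, 11.86 and 11.86 in *rad23Δ*, 10.74, 10.69 and 10.64 in *rad4Δ* and 10.63, 11.02 and 10.52 in wildtype, a difference of 1.02 from wildtype (adjusted p = 0.0028). *HXT7* differed by 0.76 (adjusted p = 0.0066). *HXT4*, a further hexose transporter, was at 8.09, 8.15 and 7.93 in the double mutant and 7.16, 7.56 and 7.39 in wildtype and differed by 0.69 (adjusted p = 0.048). For *HXT4*, *HXT6* and *HXT7* the double mutant and *rad23Δ* arrays overlapped, with differences of 0.04, -0.07 and 0.11 between those strains. Of the 21 hexose transporter and glucose sensing genes measured, 3 rose and 1 fell, with a median difference of 0.05 (0.03 without the array labelled wildtype replicate 3), beside 27 higher and 17 lower of 5656 genes and a median of -0.02 over all of them. The 9 measured neighbours of *HXT3* differed by -0.16 to 1.02, and only *HXT6* and *HXT7* among them were called.

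The phosphate genes made up the second group of strong decreases, and here neither single mutant was low. The phosphate starvation (PHO) pathway switches on transporters, phosphatases and polyphosphate synthesis when phosphate is scarce. *PHO84*, the high-affinity phosphate transporter, was at 6.05, 6.20 and 6.15 on the double mutant arrays, at 10.31, 10.54 and 10.65 in *rad23Δ*, at 11.06, 10.39 and 11.46 in *rad4Δ* and at 10.26, 10.17 and 11.10 in wildtype. The double mutant lay far below 9 arrays that overlapped one another, and the difference from wildtype was -4.38 (SE 0.27, adjusted p = 4.2e-06). *SPL2*, a regulator of low-affinity phosphate transport, was at 3.16, 3.01 and 2.74 in the double mutant, 6.12, 6.09 and 6.08 in *rad23Δ*, 7.11, 5.75 and 6.46 in *rad4Δ* and 5.60, 5.36 and 7.17 in wildtype, a difference of -3.07 (SE 0.41, adjusted p = 0.0049). Its double mutant signals were as dim as those of the deleted *RAD4*, so that this size too is a lower bound. *PHO5*, the secreted acid phosphatase, was at 5.57, 5.81 and 5.70 in the double mutant and 7.33, 7.27 and 8.59 in wildtype and differed by -2.04 (adjusted p = 0.037). In *PHO84*, *SPL2* and *PHO5* the array labelled wildtype replicate 3 was the brightest wildtype array. Without that array *PHO84* differed by -4.08 (adjusted p = 8.8e-06), *SPL2* by -2.51 (adjusted p = 0.0036) and *PHO5* by -1.61 (adjusted p = 0.11).

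Polyphosphate synthesis in the vacuole followed in smaller steps. Both probe sets of *VTC4*, the subunit that makes polyphosphate, fell: the first was at 8.14, 8.08 and 8.01 in the double mutant and 8.79, 8.80 and 8.88 in wildtype, a difference of -0.75 (adjusted p = 0.017), and the second differed by -0.74 (adjusted p = 0.029). *VTC1*, a partner subunit, was at 10.29, 10.32 and 10.33 in the double mutant and 10.89, 10.80 and 11.21 in wildtype and differed by -0.65 (adjusted p = 0.046). The related subunit gene *VTC3* differed by -1.12 but did not pass (adjusted p = 0.058), and *PHM6* differed by -1.19 (adjusted p = 0.14). *PHM8*, which encodes a nucleotide phosphatase, was not lower, at a difference of 0.59 (adjusted p = 0.077). Of the 18 phosphate genes measured, 5 (27.8%) fell and 0 rose, beside 0.301% and 0.477% of all genes. The median difference was -0.26, and in 44.4% of them all double mutant arrays lay below all wildtype arrays, beside 15.9% of all genes. Without the array labelled wildtype replicate 3, only *PHO84* and *SPL2* of these genes were called, beside 10 lower and 18 higher of all 5656 genes. With the array labelled *rad4Δ* replicate 2 left out as well, 5 were called lower and 0 higher, beside 23 and 36 of all 5656 genes. *PHO5* (adjusted p = 0.0050), *VTC3* (adjusted p = 0.0020) and both *VTC4* probe sets (adjusted p = 0.016 and 0.044) passed in that fit. *VTC1* did not pass in it, at a difference of -0.53 (adjusted p = 0.093). With the 3 double mutant arrays and wildtype replicates 1 and 2 alone, 6 were lower and 1 higher, beside 48 and 59 of all genes. *PHO84*, *SPL2*, *PHO5*, *VTC1* and both *VTC4* probe sets were also lower in the double mutant than in *rad23Δ* and than in *rad4Δ* (adjusted p from 7.1e-06 to 0.035 against *rad23Δ* and from 1.3e-06 to 0.014 against *rad4Δ*).

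**Figure D3:**
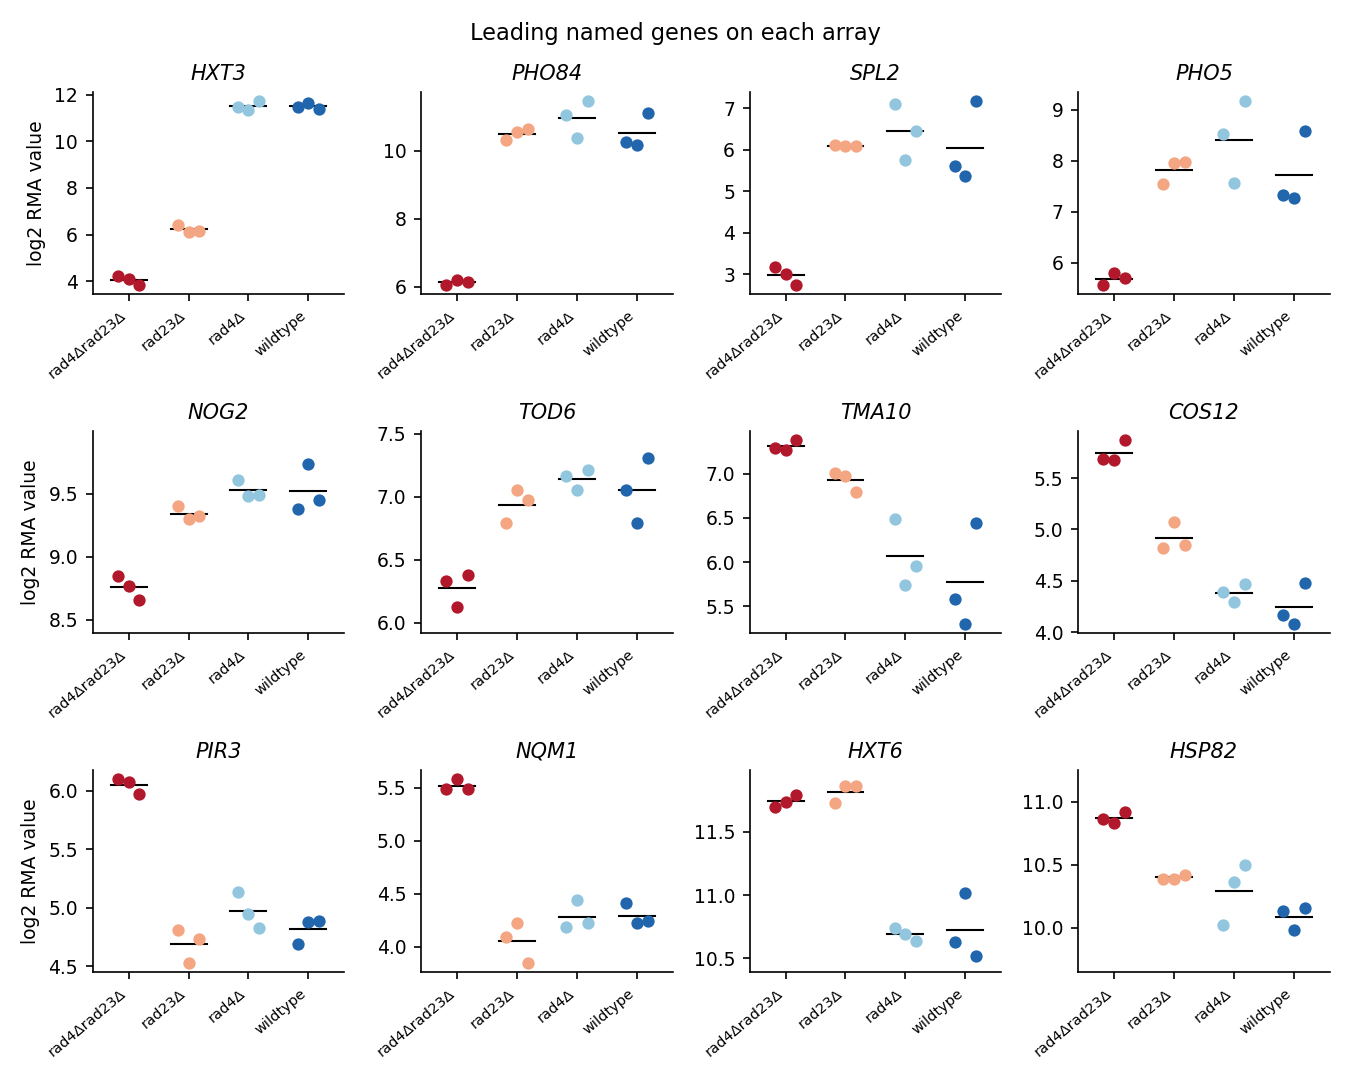
Log2 RMA signal (vertical axis) of 12 genes on the 12 arrays, with *rad4Δrad23Δ* at the left of each panel, then *rad23Δ*, *rad4Δ* and wildtype; each dot is an array, replicates 1 to 3 from left to right, and the line is the strain mean. *PHO84*, *SPL2* and *PHO5* are low only on the double mutant arrays, whereas *HXT3* is low and *HXT6* high in both the double mutant and *rad23Δ*.

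The other transcripts that fell differed by less than 1 log2 unit. A few act in making ribosomes. *NOG2*, a GTPase of large subunit assembly, was at 8.85, 8.77 and 8.66 in the double mutant and 9.38, 9.73 and 9.45 in wildtype by the brighter of its probe sets, a difference of -0.76 (adjusted p = 0.0066), and its other probe set differed by -0.87 (adjusted p = 0.041). *IPI1*, a component of the Rix1 complex that processes large subunit precursors, was at 6.03, 5.88 and 6.0 in the double mutant and 6.47, 6.79 and 6.78 in wildtype, a difference of -0.71 (adjusted p = 0.017). *TOD6*, which encodes a repressor of ribosome biogenesis genes, was at 6.33, 6.13 and 6.38 in the double mutant and 7.05, 6.79 and 7.31 in wildtype and differed by -0.77 (adjusted p = 0.022). The group thus holds an assembly factor and a repressor of that group among its decreases. *IPI1* was not in the list of ribosome biogenesis genes counted here. Of the 59 genes in that list that were measured, *NOG2* and *TOD6* (3.39%) fell and 0 rose, beside 0.301% and 0.477% of all genes. The median difference was -0.17, and 27 (45.8%) had all double mutant arrays below all wildtype arrays, beside 15.9% of all genes. The 75 genes of ribosomal proteins had a median of 0.00 and no called member.

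Single genes of other pathways completed the decreases. *TEA1*, an activator of Ty1 transcription, was at 5.42, 5.32 and 5.48 in the double mutant and 6.01, 6.17 and 6.12 in wildtype and differed by -0.69 (adjusted p = 0.0066). *CPA1*, a subunit of the carbamoyl phosphate synthetase of arginine synthesis, was at 7.97, 7.97 and 7.82 in the double mutant and 8.38, 8.69 and 8.52 in wildtype and differed by -0.61 (adjusted p = 0.027). It was the only called gene among 14 arginine genes, beside 0.301% of all genes called lower, and was not called without the array labelled wildtype replicate 3. In 7 of the 14 all double mutant arrays lay below wildtype, beside 15.9% of all genes. *IZH1*, a membrane protein of zinc homeostasis, was at 7.90, 7.99 and 7.83 in the double mutant and 8.47, 8.57 and 8.37 in wildtype and differed by -0.56 (adjusted p = 0.017). *RSC8*, a subunit of the RSC chromatin remodeller, differed by -0.52 and the small nucleolar RNA *SNR73* by -0.46. Both probe sets of the pheromone-regulated gene *PRM7* differed by -0.62, and the first, at 4.96, 5.04 and 4.86 in the double mutant, 5.74, 5.79 and 5.71 in *rad23Δ*, 5.65, 5.80 and 5.54 in *rad4Δ* and 5.55, 5.72 and 5.45 in wildtype, was below all other strains. *PRM7* was the only one of 23 pheromone genes called (4.35%), beside 0.301% of all genes called lower. The group's median was -0.09 with all arrays and -0.16 without the array labelled wildtype replicate 3. The gene *YGR079W* differed by -0.77 (adjusted p = 0.017), and 4 probe sets without a gene name by -0.68 to -0.85.

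Among the transcripts that rose, genes of the general stress response formed the largest of the groups examined. These genes are induced by many stresses through the activators Msn2 and Msn4, which bind stress response elements. *TMA10*, which encodes a ribosome-associated protein, was at 7.29, 7.27 and 7.38 in the double mutant, 7.01, 6.98 and 6.79 in *rad23Δ*, 6.49, 5.74 and 5.96 in *rad4Δ* and 5.58, 5.30 and 6.44 in wildtype, a difference of 1.54 (SE 0.25, adjusted p = 0.017). The transaldolase gene *NQM1* was at 5.49, 5.58 and 5.49 in the double mutant, 4.09, 4.23 and 3.85 in *rad23Δ*, 4.19, 4.44 and 4.23 in *rad4Δ* and 4.41, 4.23 and 4.24 in wildtype, a difference of 1.23 (adjusted p = 2.8e-04). The double mutant was the highest strain for both, and for *TMA10* the *rad23Δ* arrays were the next highest. *GCY1*, a glycerol dehydrogenase gene, was at 8.26, 8.22 and 8.23 in the double mutant and 7.03, 6.91 and 7.50 in wildtype and differed by 1.09 (adjusted p = 0.017). *GRE1*, encoding a hydrophilin, was at 4.49, 4.38 and 4.46 in the double mutant and 3.40, 3.53 and 3.53 in wildtype and differed by 0.96 (adjusted p = 0.0040).

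Smaller increases came from other members of the same group. *XBP1*, a stress-induced transcriptional repressor, was at 4.46, 4.67 and 4.77 in the double mutant and 3.95, 3.97 and 3.75 in wildtype and differed by 0.74 (adjusted p = 0.017). The cytosolic aldehyde dehydrogenase gene *ALD3* was at 4.67, 4.77 and 4.74 in the double mutant and 4.06, 3.87 and 4.08 in wildtype and differed by 0.72 (adjusted p = 0.0069). *RTC3* differed by 0.62, the mitochondrial peroxiredoxin gene *PRX1* by 0.57 and *PNC1*, a nicotinamidase of the NAD salvage pathway, by 0.49. In total 9 of the 44 stress genes measured (20.5%) rose and 0 fell, beside 0.477% and 0.301% of all genes. The median difference was 0.42, and single differences ran from -0.18 to 1.54. In 25 (56.8%) all double mutant arrays lay above all wildtype arrays, beside 13.0% of all genes. Without the array labelled wildtype replicate 3, 6 rose and 0 fell, beside 18 and 10 of all 5656 genes. *DDR2*, a stress gene that the study examined by name, differed by 0.74 (adjusted p = 0.47). The 21 genes of trehalose and glycogen metabolism had a median of 0.28 and none was called.

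Protein folding and turnover genes rose in part. *CUR1*, which directs misfolded proteins to sequestration sites, was at 6.03, 5.94 and 5.88 in the double mutant, 5.03, 5.22 and 5.12 in *rad23Δ*, 4.90, 4.20 and 4.71 in *rad4Δ* and 4.42, 4.53 and 5.21 in wildtype, a difference of 1.23 (adjusted p = 0.017). *HSP82*, encoding the Hsp90 chaperone, was at 10.86, 10.83 and 10.92 in the double mutant and 10.13, 9.98 and 10.16 in wildtype and differed by 0.78 (adjusted p = 0.0093). These were the 2 called members of 25 chaperone genes, of which 14 (56.0%) had all double mutant arrays above wildtype, with a median of 0.24. Over all genes 0.477% were called higher, 13.0% were separated above wildtype in this way and the median was -0.02. *RPN4*, the transcription factor of proteasome genes, was at 8.87, 8.83 and 8.99 in the double mutant, 8.37, 8.58 and 8.48 in *rad23Δ*, 8.18, 8.04 and 8.55 in *rad4Δ* and 8.20, 8.01 and 8.35 in wildtype and differed by 0.71 (adjusted p = 0.041). Of the 33 genes of the 26S proteasome none was called, the median was 0.15 and 15 (45.5%) had all double mutant arrays above wildtype, beside the same 13.0% of all genes. The lowest of these, at -1.95, was a probe set that was dim on double mutant replicate 2 alone. Apart from *RAD23* itself and *RPN4*, none of the 15 ubiquitin shuttle and adaptor genes was called.

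Carbon metabolism, cell wall and subtelomeric genes supplied further increases. *ADR1*, an activator of genes for growth on non-fermentable carbon, was at 5.65, 5.67 and 5.86 in the double mutant and 5.05, 4.95 and 4.95 in wildtype and differed by 0.74 (adjusted p = 0.0040), and the mitochondrial aldehyde dehydrogenase gene *ALD4* was at 9.45, 9.45 and 9.57 in the double mutant and 8.84, 8.85 and 8.92 in wildtype and differed by 0.62 (adjusted p = 0.0091). None of the 47 respiratory genes passed, although 19 (40.4%) had all double mutant arrays above wildtype, beside 13.0% of all genes. Their median was 0.20 with all arrays and 0.13 without the array labelled wildtype replicate 3. *PIR3*, a covalently bound cell wall protein gene, was at 6.10, 6.08 and 5.97 in the double mutant, 4.81, 4.53 and 4.73 in *rad23Δ*, 5.14, 4.95 and 4.83 in *rad4Δ* and 4.69, 4.88 and 4.89 in wildtype, a difference of 1.23 (adjusted p = 2.6e-04). *ROM1*, an exchange factor for the GTPase Rho1 of the cell integrity pathway, was at 6.60, 6.60 and 6.56 in the double mutant and 5.69, 5.61 and 5.72 in wildtype and differed by 0.91 (adjusted p = 0.0045). Both were high in the double mutant only. They were the called members of 37 cell wall genes, beside 0.477% of all genes called higher. The median of the 37 was -0.01 with all arrays and -0.12 without the array labelled wildtype replicate 3. *COS12*, a member of the subtelomeric COS family of membrane proteins, was at 5.69, 5.68 and 5.87 in the double mutant, 4.82, 5.07 and 4.85 in *rad23Δ*, 4.39, 4.29 and 4.47 in *rad4Δ* and 4.17, 4.08 and 4.48 in wildtype and differed by 1.50 (adjusted p = 8.2e-05). It was the 1 called gene of 7 COS genes with a probe set of their own (14.3%), beside 0.477% of all genes called higher. The median of the 7 was 0.33.

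The remaining named genes that rose were *YMR196W*, *YLR108C*, *MLG1*, *ECL1*, *YNR068C*, *REE1* and *MRA1*, with differences of 0.47 to 1.03. *YMR196W* was at 8.16, 8.29 and 8.22 in the double mutant and 7.43, 7.24 and 6.92 in wildtype (adjusted p = 0.030), and *YLR108C* was at 6.11, 6.11 and 6.01 in the double mutant and 5.43, 5.36 and 4.78 in wildtype (adjusted p = 0.046). Probe sets that match repeated sequences also rose. 3 probe sets shared by open reading frames of Ty elements, the yeast retrotransposons, differed by 0.64 to 0.71, and the 42 probe sets that share any of those names had a median of 0.36 and a range of -0.32 to 0.89, so that 39 of them were not called. A probe set shared by subtelomeric *YRF1* helicase genes was at 6.09, 5.76 and 5.95 in the double mutant, 5.88, 6.50 and 6.29 in *rad23Δ*, 3.90, 4.0 and 3.72 in *rad4Δ* and 4.81, 4.31 and 4.35 in wildtype, a difference of 1.44 (adjusted p = 0.0031). It overlapped *rad23Δ*, and the other 23 probe sets with those names were not called. A probe set shared by *COX1*, a mitochondrially encoded subunit of cytochrome oxidase, and its intron-encoded proteins was at 8.64, 8.74 and 8.57 in the double mutant and 8.07, 8.01 and 7.94 in wildtype and differed by 0.64 (adjusted p = 0.017). Of the 19 mitochondrially encoded genes with a probe set of their own 0 were called, beside 0.477% of all genes called higher. Another 4 probe sets, whose numbers on the array follow one another and which have no gene name in the annotation used, differed by 1.26 to 1.63. The one with the largest difference was at 10.75, 10.74 and 10.69 in the double mutant, 9.05, 8.67 and 8.80 in *rad23Δ*, 8.72, 9.29 and 8.19 in *rad4Δ* and 9.21, 9.34 and 8.73 in wildtype (adjusted p = 0.0069).

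The DNA damage response genes examined here did not pass the test in this comparison in the fit over all strains. *HUG1*, a damage-induced inhibitor of ribonucleotide reductase, came nearest. It was at 6.24, 5.88 and 6.01 in the double mutant and 4.78, 4.97 and 4.85 in wildtype, with no overlap, and the difference was 1.18 (95% interval 0.65 to 1.71, adjusted p = 0.055). Without the array labelled wildtype replicate 3 the difference was 1.17 (adjusted p = 0.16), and without the array labelled *rad4Δ* replicate 2 as well it was the same (adjusted p = 0.17). In a fit of the 3 double mutant arrays and wildtype replicates 1 and 2 alone it was called (adjusted p = 0.014), among 134 probe sets (1.44%), 73 higher (0.787%) and 61 lower (0.658%). *HUG1* was also called in the fit of the 6 arrays of both strains, with wildtype replicate 3 kept (adjusted p = 0.0094). That fit called 90 probe sets, 48 higher and 42 lower. In the fit over all strains *HUG1* was higher than in *rad23Δ* by 1.79 (adjusted p = 0.0073) and than in *rad4Δ* by 1.39 (adjusted p = 0.022). The large subunit gene of ribonucleotide reductase, *RNR1*, differed by -0.02 (95% interval -0.55 to 0.52), its damage-induced counterpart *RNR3* by 0.36 (-0.03 to 0.76), and the small subunit genes *RNR2* and *RNR4* by 0.43 (0.15 to 0.70) and 0.26 (0.02 to 0.49). Their adjusted p-values ran from 0.23 to 0.99. Without the array labelled wildtype replicate 3, *RNR1*, *RNR2*, *RNR3* and *RNR4* differed by -0.16, 0.31, 0.40 and 0.16. *DUN1*, the kinase that relays the checkpoint signal to ribonucleotide reductase control, was at 6.45, 6.47 and 6.43 in the double mutant and 6.09, 6.03 and 6.34 in wildtype, and the difference was 0.30 (95% interval 0.03 to 0.56, adjusted p = 0.38). *RFX1*, also called *CRT1*, the repressor of these genes, differed by 0.31 (adjusted p = 0.42), and *GPG1* by 0.66 (adjusted p = 0.21). *DUN1* and *RFX1* differed by 0.39 and 0.33 without the array labelled wildtype replicate 3 (adjusted p = 0.34 and 0.55). *GPG1* passed in the fit of 5 arrays, at 0.56 (adjusted p = 0.039), and in that of the 6 arrays of both strains (adjusted p = 0.046). It did not pass without the array labelled wildtype replicate 3 in the fit with all strains (adjusted p = 0.45). With all arrays *GPG1* was higher than in *rad23Δ* by 1.01 (adjusted p = 0.035) and than in *rad4Δ* by 0.96 (adjusted p = 0.044). *RNR3* was higher than in *rad23Δ* by 1.03 (adjusted p = 0.030), but its difference of 0.56 from *rad4Δ* did not pass (adjusted p = 0.25). *DUN1*, *RNR1*, *RNR2* and *RNR4* passed against neither single mutant. Of the 14 ribonucleotide reductase and Crt1 target genes 0 were called against wildtype, beside 0.477% of all genes called higher and 0.301% lower. With shares this small, a count of 0 in so short a list says little. In 6 of the 14 (42.9%) all double mutant arrays lay above wildtype and in 4 (28.6%) below, beside 13.0% and 15.9% of all genes. Their median was 0.11 with all arrays and 0.05 without the array labelled wildtype replicate 3. The 31 checkpoint genes had a median of -0.02 and no called member, beside the same small shares of all genes. In them *RAD53*, *CHK1*, *RAD9*, *TEL1* and *PDS1* differed by -0.09 to 0.20, and the 9 probe sets of *MEC1* by -0.41 to 0.28. *SML1*, an inhibitor of ribonucleotide reductase, differed by 0.07, and the repair gene *RAD7* by 0.09. Of the 25 excision repair genes the deleted *RAD23* was the only one called, and the median was 0.03.

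**Figure D4:**
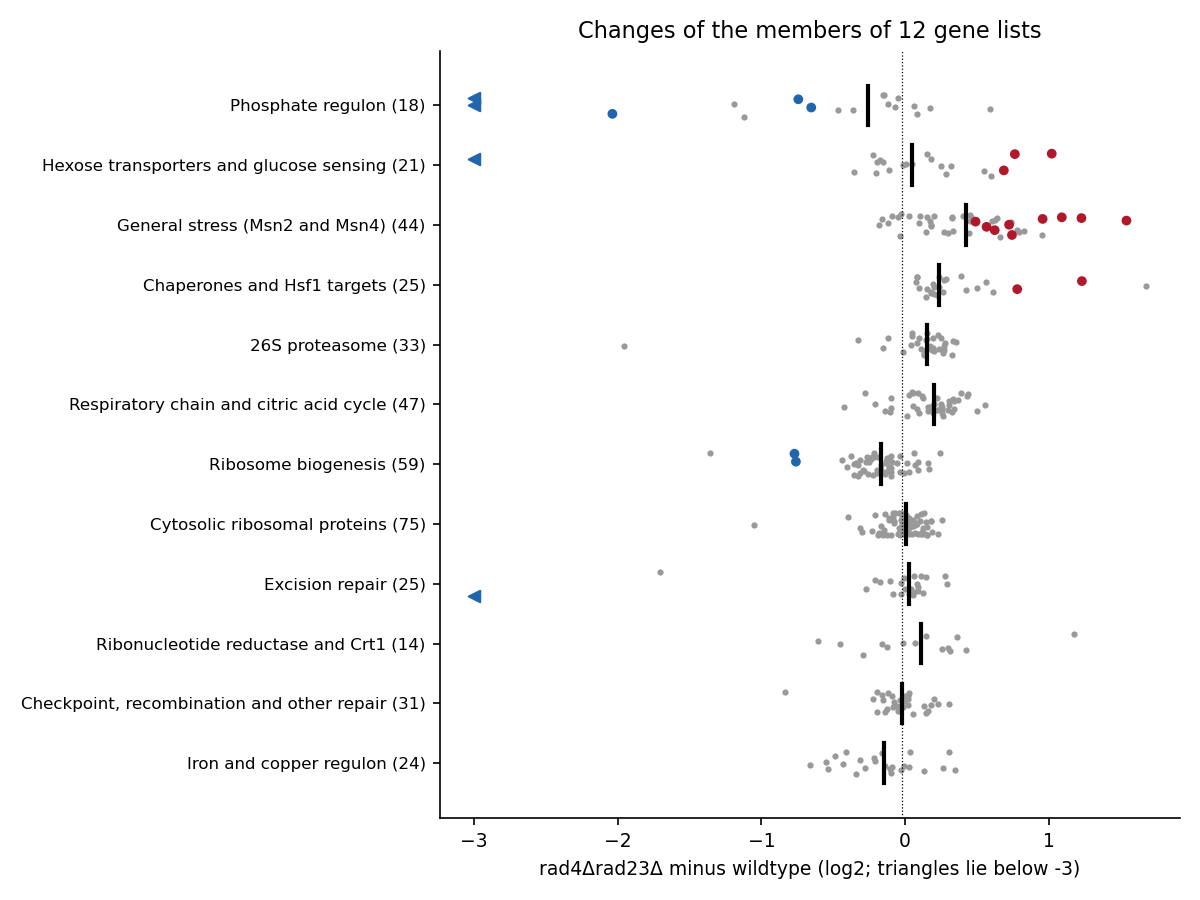
Difference between the double mutant and wildtype (horizontal axis, log2 units) for the members of 12 gene lists; each dot is a gene, called genes are coloured, the black bar is the list's median, the dotted line is the median of all genes at -0.02, and triangles mark genes below -3. General stress and chaperone genes lie mostly to the right of the dotted line, and phosphate and ribosome biogenesis genes mostly to its left.

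The values were then read without the array labelled wildtype replicate 3. The count of called probe sets was then 35 (0.377%), 24 higher (0.259%) and 11 lower (0.119%), of which 32 were among the 60. All 60 kept their sign, which leaving out 1 array could not change, since all double mutant arrays lay beyond all wildtype arrays. Their differences were 0.77 to 1.22 times those with all arrays, with which they share the remaining arrays. Genes that were no longer called included *PHO5*, *VTC1*, *VTC4*, *TOD6*, *IPI1*, *CPA1*, *RSC8*, *HXT4*, *RPN4*, *XBP1*, *PRX1*, *PNC1* and *YMR196W*. These losses were not particular to that array. Of the 60 probe sets, 21 were lost whichever of the 6 arrays was left out, among them those of all these genes except *TOD6*, *IPI1*, *XBP1* and *PRX1*. Leaving out any other of the 6 arrays gave 17 to 32 called probe sets. *BTN2*, *OXR1* and *SNR75* were called without the array labelled wildtype replicate 3 but not with all arrays. *BTN2* is a partner of *CUR1* in sorting misfolded proteins, *OXR1* an oxidation resistance gene and *SNR75* a small nucleolar RNA. The last 2 were named after their values were seen. *BTN2* was at 7.28, 7.46 and 7.36 in the double mutant and 5.47, 4.98 and 6.62 in wildtype, and the third wildtype array was the highest. The array labelled wildtype replicate 3 lay beyond the other wildtype arrays on the side of the double mutant in 19 of the 60 and on the far side in 21. Across the fits that each left out 1 of the 6 arrays, 16 probe sets were called every time, those of *HXT3*, *RAD23*, *PHO84*, *SPL2*, *ADR1*, *ROM1*, *GRE1*, *HXT6*, *NQM1*, *PIR3* and *COS12*, the *YRF1* probe set and the 4 consecutive probe sets without a name.

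**Figure D5:**
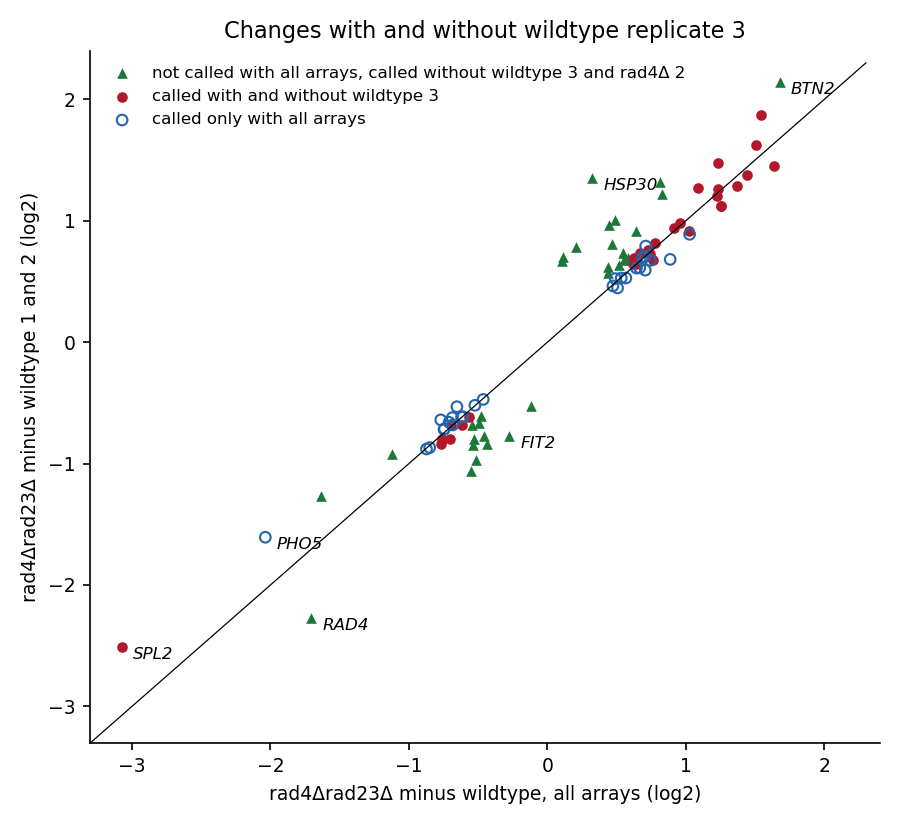
Difference between the double mutant and wildtype computed without the array labelled wildtype replicate 3 (vertical axis, log2 units) against the difference with all 3 wildtype arrays (horizontal axis); circles are the 60 probe sets called with all arrays, filled where they were also called without that array, and triangles are those not called with all arrays but called without it and the array labelled *rad4Δ* replicate 2. *HXT3*, *RAD23*, *PHO84* and 1 probe set without a gene name lie outside the plotted range, and the circles lie close to the diagonal.

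When the array labelled *rad4Δ* replicate 2 was left out together with the array labelled wildtype replicate 3, 73 probe sets were called (0.787%), 45 higher (0.485%) and 28 lower (0.302%), and 41 of these were among the 60. The 32 that were called in this fit but not with all arrays, from which genes were named after their values were seen, included small heat shock genes, which went in opposite directions, and iron genes. *HSP42*, a small heat shock protein gene, was at 9.45, 9.40 and 9.46 in the double mutant and 8.18, 8.25 and 9.40 in wildtype, where the third array lay at the double mutant's level (adjusted p = 0.0022 in this fit and 0.47 with all arrays). *HSP26*, also a small heat shock protein gene, was at 8.34, 8.29 and 8.29 in the double mutant and 8.78, 8.89 and 7.6 in wildtype, and differed by -0.53 in this fit (adjusted p = 0.034) and by -0.12 with all arrays (adjusted p = 0.92). *HSP30*, which encodes a stress protein of the plasma membrane, was at 8.85, 8.74 and 8.92 in the double mutant, 10.41, 10.38 and 10.37 in *rad23Δ*, 10.55, 7.62 and 10.63 in *rad4Δ* and 7.62, 7.35 and 10.57 in wildtype. The array labelled wildtype replicate 3 was thus at the level of *rad4Δ* replicates 1 and 3, and the array labelled *rad4Δ* replicate 2 at that of wildtype replicate 1. *FIT2*, a cell wall mannoprotein gene of iron uptake, was at 8.27, 8.17 and 8.34 in the double mutant, 8.15, 8.08 and 8.13 in *rad23Δ*, 7.51, 8.97 and 7.33 in *rad4Δ* and 9.05, 9.02 and 7.54 in wildtype. The siderophore transporter genes *ARN1* and *ARN2* and *TIS11*, which acts in mRNA decay when iron is short, differed by -0.84, -0.85 and -1.06 in this fit, against -0.43, -0.54 and -0.55 with all arrays. Of the 24 iron and copper genes 4 fell and 0 rose in this fit, beside 23 and 36 of all 5656 genes. With all arrays, or without wildtype replicate 3 alone, 0 of the 24 were called either way.

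The changes divided by how the single mutants behaved. Of the 60 probe sets, 30 also differed in the same way between the double mutant and *rad23Δ*, beside 81 of all probe sets (0.873%) called in that contrast, 53 higher (0.571%) and 28 lower (0.302%). Between the double mutant and *rad4Δ* 42 of the 60 differed, beside 71 of all (0.765%), 43 higher (0.464%) and 28 lower (0.302%). These contrasts share the double mutant arrays with the main one, so that the counts are given as a description and are not independent of it. They were taken with all arrays only, so that the array labelled *rad4Δ* replicate 2 is among those of *rad4Δ*. The 26 that differed from all 3 other strains included *NOG2*, *TOD6*, *PRM7*, *HXT3* and the called phosphate genes among the decreases and *PIR3*, *NQM1*, *COS12*, *YMR196W*, *GRE1*, *ROM1*, *ALD3*, *XBP1* and *PRX1* among the increases. The 30 that were not called against *rad23Δ* included *TMA10*, *CUR1*, *GCY1*, *HXT4*, *HXT6*, *HXT7*, *HSP82*, *RPN4*, *ADR1*, *ALD4*, *IPI1*, *TEA1*, *CPA1* and *IZH1*. A p above the threshold does not show that the strains were alike: the double mutant differed from *rad23Δ* by 0.83 for *CUR1* (adjusted p = 0.11) and by 0.39 for *TMA10* (adjusted p = 0.70).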

How the data were processed

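RNA of 4 yeast strains was measured on 12 arrays, 3 per strain, described by the study as biological repeats. Per the labels, images were read in Microarray Suite 5.0. The authors normalised by robust multichip averaging (affy 1.5.8, Bioconductor 1.5, R 2.0.1), and the deposited values, on a log2 scale, were used as they are. Of 9335 probe sets, 60 array controls were left out. The platform annotation gave 6504 of the others 1 gene name, 328 several and 2443 none.

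Here limma 3.58.1 in R 4.3.3 fitted 1 mean per strain to all 12 arrays with moderated variances (8 residual and 4.03 prior degrees of freedom). P-values were adjusted by the Benjamini-Hochberg method over 9275 probe sets, and those under 0.05 were called. The procedure was tested on simulated data. In gene lists, a gene with several probe sets was counted by its brightest, and lists were described by counts and medians without a test. Named genes were all called ones with 1 name, a set of damage response genes, and members of lists with a called member; exceptions are stated. The members, gene lists and alternatives were chosen with earlier results of these data known. No intensities, detection calls or scan details were used, so that background and dim signals could not be reassessed.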

Additional observations from a re-analysis of the deposited data

How the results depend on the processing

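The count of 60 called probe sets was within 1.5 times of itself after median-centring (62), quantile normalisation (80), leaving out the dimmest probe sets (69), use of probe sets with 1 name (69) or of gene means (80), fitting the 6 arrays of both strains alone (90), a variance trend (62) or robust variances (60), and without probe sets that stood apart on 1 array (74). It was 107 without the *rad4Δ* arrays, 134 with the 3 double mutant arrays and wildtype replicates 1 and 2 alone, and 827 with array weights, which gave wildtype replicate 1 a weight of 3.27 and wildtype replicates 2 and 3 weights of 0.404 and 0.562. It was 7 without wildtype replicates 2 and 3 together, and 17 to 35 when each of the 6 arrays was left out in turn: without double mutant replicates 1, 2 and 3 it was 23, 19 and 17, and without wildtype replicates 1, 2 and 3 it was 22, 32 and 35. The cause of these shifts was not tested. At an adjusted p of 0.01 it was 24, at 0.1 it was 114, and with a log2 change of at least 1 it was 18. With the replicate block it was 64. The labels do not say that equal numbers mark a shared batch, and the deviations of same-numbered double mutant and wildtype arrays correlated by -0.097, 0.12 and 0.15, so that the numbers were not taken as pairs. None of the called genes named in the report changed sign under any of these settings. In the fits that left out arrays this could not have happened, since all double mutant arrays lay beyond all wildtype arrays for each of them. The alternatives without wildtype replicates 2 and 3 together and without probe sets that stood apart on 1 array were chosen after seeing the data. Of 693 list medians recomputed under the settings, 614 moved by less than the spread and 79 by more.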

Other observations

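The 64 probe sets that were dim on double mutant replicate 2 alone stand for 51 genes among the 62 that carry 1 name. Their median difference from wildtype was -1.02 with all arrays and -0.13 without double mutant replicate 2, where single differences ran from -0.53 to 0.36, and 0 of them were called in either fit. They include genes of translation, fatty acid synthesis, glycolysis and the proteasome. *RPN13*, encoding a ubiquitin receptor of the proteasome, was at 9.47, 3.96 and 9.36 in the double mutant and 9.48, 9.65 and 9.52 in wildtype. *EBP2*, needed for ribosomal RNA processing, was at 8.10, 4.76 and 8.11 in the double mutant and 8.23, 8.33 and 8.48 in wildtype. *FBA1*, the aldolase of glycolysis, was at 12.69, 9.58 and 12.87 in the double mutant and 12.99, 12.88 and 12.93 in wildtype. In each of them double mutant replicates 1 and 3 were within 0.5 log2 units of all wildtype arrays. A gene list that holds such a probe set has its lowest member from that array, and its median is given in place of its range.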
